A study of Mus musculus with 76 samples.

Results

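The cells described here are interneurons of the mouse hippocampus at postnatal day 4, chosen by their level of Tac1, the gene of the precursor of substance P and neurokinin A. Of 76 labelled cells, 67 were kept by the authors' quality filter and 62 of these carried no mark for contaminants. Among those 62 cells, 30 had Tac1 at 10 CPM (counts per 1000000 counts of the cell) or more and are called Tac1-expressing. The other 32 cells were below 10 CPM and are called Tac1-negative. Tac1 chose the cells, so its levels are given as a description and it was left out of every test.

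Tachykinins are short neuropeptides cut from a larger precursor, stored in dense-core granules and sensed by G-protein-coupled receptors of the Tacr family. In the hippocampus, interneurons born in the medial ganglionic eminence (MGE) take their identity from the transcription factors Nkx2-1 and Lhx6 and later divide mainly into parvalbumin cells, which fire fast and inhibit the soma and axon of pyramidal cells, and somatostatin cells, which inhibit dendrites. Tac1 transcript is found in many parvalbumin cells of the rodent forebrain, and parvalbumin itself appears only later in postnatal life, so early cells of this lineage are recognised by other genes.

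Each sample was 1 neuron of an acute brain slice, emptied through its patch pipette (Patch-seq) and sequenced after Nextera XT library preparation. All cells lay in the dorsal CA1 pyramidal layer and were labelled with tdTomato through Nkx2.1-Cre and the Ai14 reporter, a background shared by all groups, so they are MGE-derived by their label and any other cell in which the Cre was once active would be marked too. The pups carried the gephyrin allele S268/270A, called Mut, or the wild-type allele, called WT. Gephyrin is the scaffold of inhibitory synapses, and the allele replaces 2 serines by alanine. The 62 cells comprised 19 Mut female and 15 Mut male cells beside 9 WT female and 19 WT male cells. The labels give neither animal nor litter nor batch, so the cells of a group may come from 1 animal. Cells were therefore not treated as replicates. For every test the counts were summed within each labelled group and Tac1 class, which gave 8 sums, and the 2 Tac1 classes were compared within the 4 labelled groups, which differ in genotype or sex and so hold different animals.

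The depths of the classes overlapped. Tac1-expressing cells held 2946456 to 12070780 counts (median 6436051) and Tac1-negative cells 3105003 to 11722598 (median 6304245). The defining genes of the labelled cell type were present in both classes. Lhx6 was at 10 CPM or more in 29 of 30 Tac1-expressing and 28 of 32 Tac1-negative cells, and Gad1, which makes GABA, in 30 of 30 and 28 of 32. Transcripts of another cell type were found in both classes: the pyramidal-cell gene Slc17a7, which encodes a glutamate transporter that these interneurons should lack, was at 10 CPM or more in 13 of 30 Tac1-expressing (43.3%) and 9 of 32 Tac1-negative cells (28.1%), with medians of 3.03 and 0.721 CPM. Neurod6, another listed pyramidal-cell gene, was at 10 CPM or more in 17 of 30 Tac1-expressing (56.7%) and 14 of 32 Tac1-negative cells (43.8%). Its medians were 46.1 and 3.31 CPM. A share of cells no larger than these, such as those of Cox6a2, Penk, Satb1 and Slitrk3 below, does not by itself show that the cells make a transcript. Markers of microglia were found in unmarked cells too: 3 Tac1-expressing and 2 Tac1-negative cells had 6 or more of 11 at 10 CPM. The markers summed to 7493 CPM in Mut female cell 20 and 2411 CPM in Mut male cell 18. In the cells marked with contaminants they summed to 3592 to 13747 CPM. The sum of the 5 Tac1-negative WT female cells stood apart. Its scaling factor was 0.636 against 1.02 to 1.20 in the other 7 sums.

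Tac1 itself ran over a wide range within the expressing class. The 30 expressing cells had 13.9 to 4833 CPM (median 391), or 78 to 31613 reads. The 32 negative cells had 0.642 to 9.32 CPM (median 2.76), and every one of them had at least 4 reads, up to 63. Few cells lay near the threshold. Just inside were WT male cell 10 at 13.9 CPM and Mut female cell 21 at 38.8 CPM, and just outside were WT male cell 12 at 9.32 CPM and WT male cell 18 at 7.85 CPM. Tac1-expressing cells made up 9 of 19 Mut female cells (47.4%, exact binomial 95% interval 24.4 to 71.1%), 8 of 15 Mut male cells (53.3%, 26.6 to 78.7%), 4 of 9 WT female cells (44.4%, 13.7 to 78.8%) and 9 of 19 WT male cells (47.4%, 24.4 to 71.1%). The intervals cover counting error only and all overlap.

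**Figure D1:**
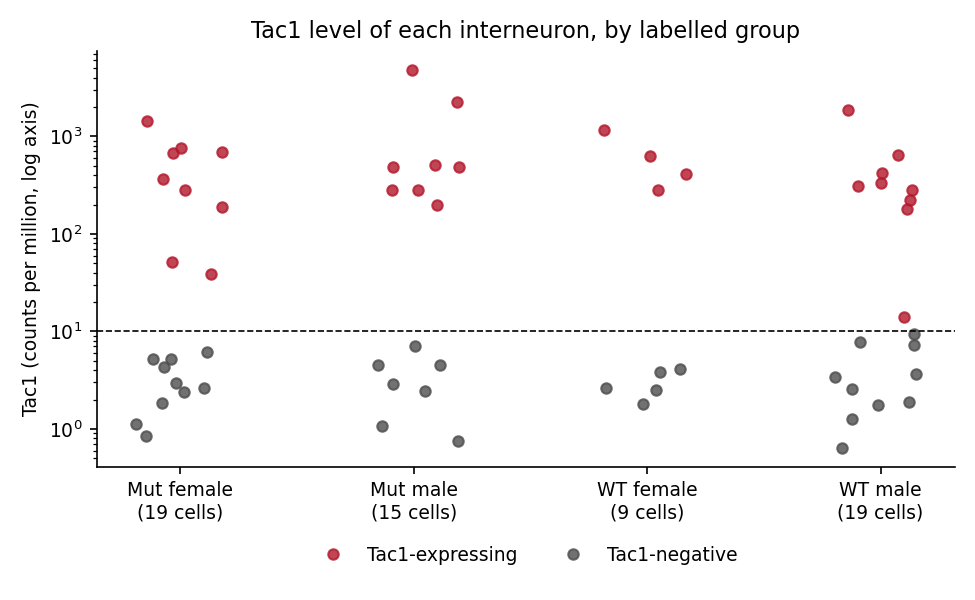
Tac1 level of each of the 62 cells on a log axis in CPM, by labelled group, with 1 point per cell and the dashed line at 10 CPM. Each labelled group held cells on both sides, with expressing cells reaching 4833 CPM and negative cells staying at or below 9.32 CPM.

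The classes differed in how many genes were detected, which touches every share given below. Tac1-expressing cells had 2874 to 7795 genes at 10 CPM or more (median 4758.5), and Tac1-negative cells had 1499 to 6395 (median 3719). Only 1 of 30 expressing cells but 10 of 32 negative cells had under 3000 such genes. As a background, of the 5207 genes detected at 10 CPM in 25 to 75% of the 62 cells, 86.2% were found in a larger share of Tac1-expressing than of Tac1-negative cells, by a median of 13.96 percentage points. Over all 13831 genes tested the share was 73.6%. A gene seen in a somewhat larger share of expressing cells is therefore the ordinary case here. Among the 29 expressing and 22 negative cells with 3000 genes or more, 68.0% of the 5207 genes still lay on that side, by a median of 6.43 percentage points. Shares given below for all cells alone carry this difference in detection.

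**Figure D2:**
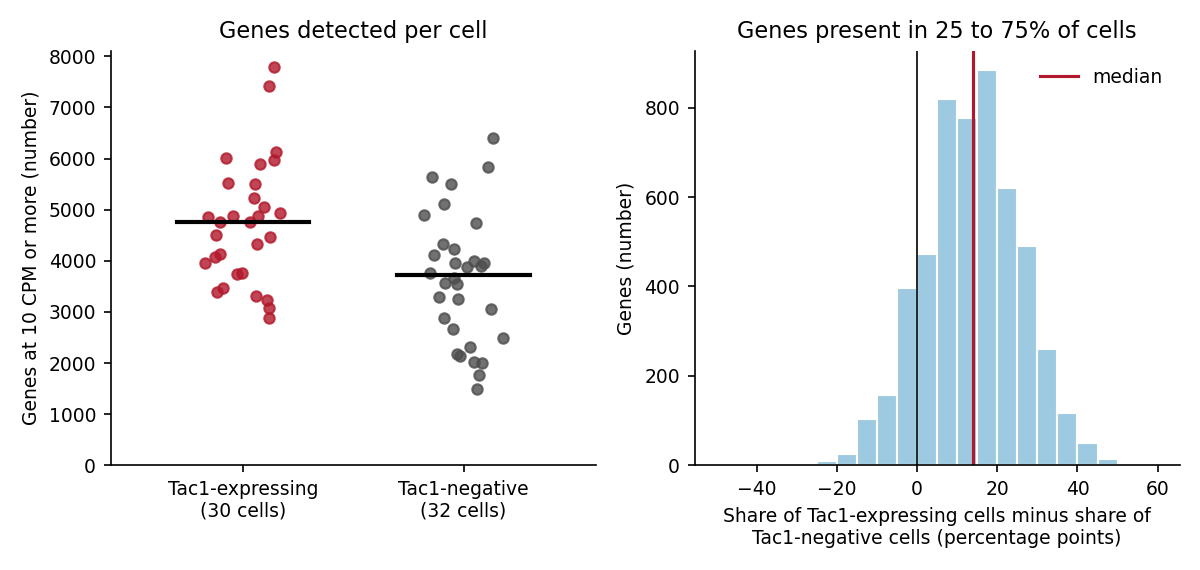
Left, the number of genes at 10 CPM or more in each cell by Tac1 class, with the median as a line (4758.5 in Tac1-expressing and 3719 in Tac1-negative cells). Right, for 5207 genes, the share of Tac1-expressing cells minus the share of Tac1-negative cells with the gene, whose median was 13.96 percentage points.

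No gene passed the test between the classes. With edgeR's quasi-likelihood test on the 8 sums, 0 of 13831 genes were higher and 0 were lower in Tac1-expressing cells at an adjusted p under 0.05 (0% each), and the lowest adjusted p was 0.999. There were 291 genes above 0 (2.1%) and 193 below (1.4%) at an unadjusted p under 0.05. DESeq2 called 592 higher (4.28%) and 246 lower (1.78%) genes at its adjusted p under 0.05, so the count of calls depended on the tool. Of the 62 genes given below with a fold change, 20 passed in DESeq2 and none passed in any edgeR or limma setting. The spread between sums was wide, with a biological coefficient of variation of 1.05. The following paragraphs therefore describe levels, counts of cells and directions, and fold changes are log2 ratios of Tac1-expressing over Tac1-negative sums with their standard error (SE) and unadjusted p, all with an adjusted p of 0.999 or more in edgeR. Sums are in TMM-scaled CPM, the CPM of the summed cells after a scaling for composition.

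The parvalbumin lineage list as a whole did not exceed the background of detection, while single members differed. Of the 23 listed genes, 16 were at 10 CPM or more in a larger share of Tac1-expressing cells, 5 in a smaller share and 2 in the same share, a part no larger than the 73.6% of all genes tested. Among cells with 3000 genes or more the numbers were 14, 7 and 2, again no larger a part than the 68.0% of background genes. Of the 18 members that could be tested, 13 had a fold change above 0 and 5 below, 2 had an unadjusted p under 0.05 and none passed. Their median log2 fold change was 0.43, beside 0.07 for all genes, and the medians within the labelled groups were 0.16 in Mut female, 0.56 in Mut male, 0.35 in WT female and 0.64 in WT male cells. A cell carried a median of 8 listed genes (2 to 15) in the expressing class and 5 (2 to 11) in the negative class. Among cells with 3000 genes or more the medians were 8 and 6.5, and the summed level of the list had a median of 2011 CPM in expressing and 2151 CPM in negative cells. The median log2 fold change was 0.31, beside 0.19 for all genes, without the cells of under 3000 genes. It was 0.24, beside 0.05 for all genes, at a Tac1 threshold of 50 CPM, and 1.03, beside 0.19, without the cells carrying Sst. Leaving out 1 cell gave 0.26 (without Mut male cell 18) to 0.80 (without WT female cell 4).

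Pvalb, the calcium buffer that names the lineage, was at 10 CPM or more in 0 of 30 Tac1-expressing cells (a count of 0 allows up to 10%) and in 1 of 32 Tac1-negative cells. Its highest level was 0.438 CPM in an expressing cell and 82.2 CPM in a negative one, Mut female cell 3. The mature marker Syt2, a fast vesicle calcium sensor, was at 10 CPM in 1 Tac1-expressing and 0 Tac1-negative cells, and Acan, the core protein of perineuronal nets, in none of either. The classes therefore cannot be named by mature parvalbumin markers at this age, and they are called by Tac1 alone.

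Cox6a2, a subunit of cytochrome c oxidase found in parvalbumin cells and striated muscle, was at 10 CPM or more in 10 of 30 Tac1-expressing cells and 1 of 32 Tac1-negative cells. Its sums were 7.63 CPM in Mut female, 86.6 in Mut male, 30.9 in WT female and 14 in WT male Tac1-expressing cells, against 0.051, 3.64, 0.0923 and 0.251 CPM in the Tac1-negative cells of the same groups. All 4 expressing sums lay above all 4 negative sums, with a log2 fold change of 6.40 (SE 1.59, unadjusted p = 0.00239), and 7.01% of all genes were higher in the expressing sum of all 4 groups. The gene was carried unevenly, by 1 of 9 Mut female and 5 of 8 Mut male expressing cells, against 1 of 4 WT female and 3 of 9 WT male ones, and 1 cell, Mut male 6, held 39.8% of its level in the class. The 7.01% of genes counts pairs within groups, a looser pattern than all 4 expressing sums above all 4 negative ones. How many genes show that stricter pattern was not counted. Among the 5207 background genes, 8.41% had a share difference at least as large as that of Cox6a2. With 3000 genes or more the counts were 10 of 29 and 1 of 22 cells. Cox6a2 lies on chromosome 7 from 128205435 to 128206387 on the minus strand (GRCm38, GENCODE M21).

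Ppargc1a, a coactivator that drives mitochondrial genes and, in mice, parvalbumin expression, was at 10 CPM or more in 20 of 30 Tac1-expressing and 9 of 32 Tac1-negative cells. Its level per cell had a median of 64.7 CPM (0.572 to 423) in Tac1-expressing cells and 1.30 CPM (0.129 to 530) in Tac1-negative cells. The sums were 97.7 CPM in Mut female, 78.9 in Mut male, 183 in WT female and 109 in WT male Tac1-expressing cells, against 53.0, 2.61, 6.60 and 74.3 CPM in Tac1-negative cells. The expressing sum was the higher in each of the 4 groups and above all 4 negative sums, with a log2 fold change of 2.78 (SE 1.15, unadjusted p = 0.0367). The separation was narrow, with 78.9 CPM in Mut male expressing cells against 74.3 CPM in WT male negative cells. As for Cox6a2, the share of all genes whose sums separate in this way was not counted. In the negative class 1 cell, WT male 18, held 50.4% of the Ppargc1a level. With 3000 genes or more the counts were 20 of 29 and 7 of 22 cells, and 1.86% of background genes had a share difference as large over all cells. Ppargc1a lies on chromosome 5 from 51454250 to 51567726 on the minus strand (GRCm38, GENCODE M21).

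Erbb4, the neuregulin receptor of interneurons that receives signals for their excitatory input, was at 10 CPM or more in 24 of 30 Tac1-expressing cells, median 64.2 CPM, and in 13 of 32 Tac1-negative cells, median 2.62 CPM. In the Mut groups the counts were 6 of 9 female and 7 of 8 male expressing cells, against 5 of 10 and 5 of 7 negative cells. In the WT groups they were 4 of 4 female and 7 of 9 male expressing cells, against 1 of 5 and 2 of 10 negative cells. The sums lay closer than the counts of cells: 88.9 CPM in Mut female, 145 in Mut male, 157 in WT female and 103.2 in WT male expressing cells, against 76.3, 157, 33.7 and 35.5 CPM in negative cells. The Mut male sums ran the other way from the other 3 groups, for a log2 fold change of 0.96 (SE 0.69, unadjusted p = 0.192), or 1.47 without WT female cell 5. Among cells with 3000 genes or more 24 of 29 and 13 of 22 cells carried it. Erbb4 lies on chromosome 1 from 68032186 to 69108059 on the minus strand (GRCm38, GENCODE M21).

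Rpp25, a subunit of RNase P and MRP that marks parvalbumin cells in cortex, showed the widest gap in share of the list. It was at 10 CPM or more in 23 of 30 Tac1-expressing cells, median 98.7 CPM, and 11 of 32 Tac1-negative cells, median 1.69 CPM, and 0.595% of background genes had a share difference as large. With 3000 genes or more the counts were 23 of 29 and 7 of 22 cells. Its sums overlapped, at 399 CPM in Mut female, 142 in Mut male, 67.7 in WT female and 75.9 in WT male expressing cells, against 49.3, 161, 222 and 65.0 CPM in negative cells. The summed difference was small, with a log2 fold change of 0.25 (SE 0.80, unadjusted p = 0.764). The highest cell of each class was at 895 CPM in Tac1-expressing and 771 CPM in Tac1-negative cells. More of the expressing cells carried the gene, while the sums differed by less than their spread.

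The other members varied. Etv1, a transcription factor of fast-spiking cells, was at 10 CPM in 9 Tac1-expressing and 3 Tac1-negative cells (9 of 29 and 2 of 22 with 3000 genes or more), but its sums pointed up in 2 groups and down in 2 (log2 fold change 1.90, SE 1.89, or -0.77 without WT female cell 1). Mef2c, a transcription factor needed early in the lineage, was at 10 CPM in all 62 cells, with a median of 875 CPM in Tac1-expressing and 514 CPM in Tac1-negative cells and a log2 fold change of 0.08 (SE 0.34). Cplx1, a regulator of vesicle fusion, had medians of 355 and 174 CPM in Tac1-expressing and Tac1-negative cells (log2 fold change 0.55, SE 0.40). Of the fast potassium channel genes of this lineage, Kcnc1 was carried by 15 Tac1-expressing and 11 Tac1-negative cells (log2 fold change 0.04, SE 0.80), and Kcnc2 by 16 and 11 cells (0.58, SE 1.24). With 3000 genes or more they were in 15 and 16 of 29 expressing and in 9 and 9 of 22 negative cells. Kcns3, Kcna1, Kcna2 and Kcnab3, further potassium channel genes, were each carried by 5 or fewer cells of either class. Nefm, a neurofilament subunit, was carried by 11 Tac1-expressing and 6 Tac1-negative cells (10 of 29 and 5 of 22 with 3000 genes or more) and its partner Nefh by 3 and 4 cells. Btbd11, a protein of interneuron synapses, was carried by 12 and 11 cells, and Plcxd3 by 8 and 5 cells. Hapln1, a link protein of perineuronal nets, ran the other way, in 3 Tac1-expressing and 7 Tac1-negative cells.

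**Figure D3:**
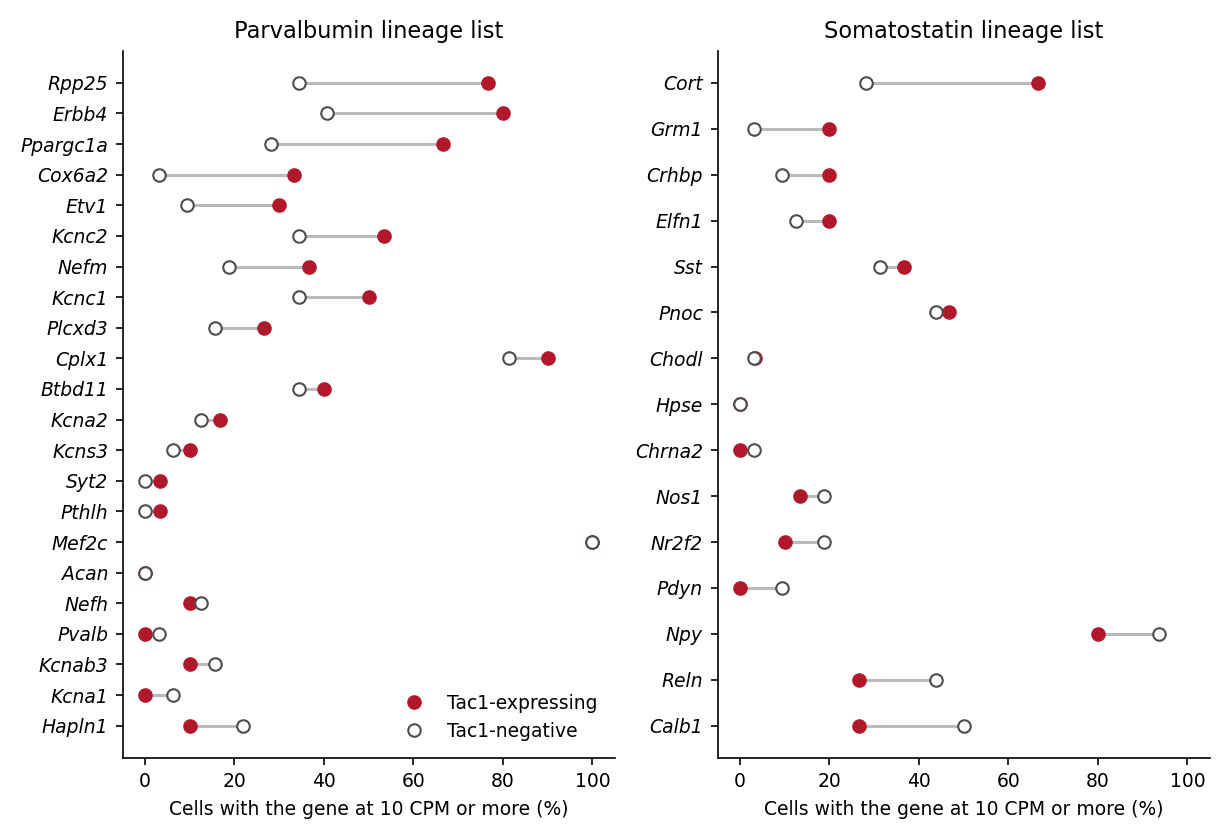
Percentage of Tac1-expressing cells (filled, of 30) and Tac1-negative cells (open, of 32) with a gene at 10 CPM or more, for genes of the parvalbumin and somatostatin lineage lists, with 1 row per gene and markers that coincide where the shares are equal. Rpp25, Erbb4, Ppargc1a and Cox6a2 in the first list and Cort in the second lie well to the right in Tac1-expressing cells, and Calb1, Reln and Npy lie to the left.

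Tac1-expressing cells carried other neuropeptide genes too, and Cort was found in more of them than of the Tac1-negative cells. Cort encodes cortistatin, a peptide related to somatostatin that is made by parvalbumin and somatostatin cells of cortex and hippocampus. It was at 10 CPM or more in 20 of 30 Tac1-expressing cells, median 46.7 CPM (0.188 to 858), and 9 of 32 Tac1-negative cells, median 0.961 CPM (0 to 216). Its sums were 48.5 CPM in Mut female, 164 in Mut male, 110 in WT female and 44.6 in WT male expressing cells, against 35.1, 34.3, 20.9 and 9.27 CPM in negative cells. All 4 expressing sums exceeded all 4 negative sums, with a log2 fold change of 1.87 (SE 0.83, unadjusted p = 0.0491), and each labelled group pointed the same way. How many of all genes have sums separated in this way was not counted. Among cells with 3000 genes or more 20 of 29 expressing and 7 of 22 negative cells carried Cort. Cort lies on chromosome 4 from 149125034 to 149126763 on the minus strand (GRCm38, GENCODE M21).

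Sst, the gene of somatostatin, was found in like numbers of both classes: 11 of 30 Tac1-expressing and 10 of 32 Tac1-negative cells were at 10 CPM or more, and the medians were 3.75 and 2.80 CPM. A few cells held most of it. Mut female cell 22 held 69.0% of the level in the expressing class and Mut male cell 7 held 85.9% of that in the negative class. Cort and Sst were carried together by 9 Tac1-expressing and 4 Tac1-negative cells, and Cort without Sst by 11 and 5 cells.

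Npy, the gene of neuropeptide Y, was at 10 CPM or more in 24 of 30 Tac1-expressing and 30 of 32 Tac1-negative cells, with medians of 178 and 405 CPM. Only 1.15% of background genes had a share difference as far to the negative side, but the sums overlapped (log2 fold change -0.75, SE 0.46, unadjusted p = 0.131, or -0.38 without WT male cell 20). Npy itself lay above the 25 to 75% of cells that defined the background genes. With 3000 genes or more the counts were 23 of 29 and 21 of 22 cells. Penk, the gene of the enkephalin precursor, was carried by 1 of 30 Tac1-expressing and 7 of 32 Tac1-negative cells, 5 of the 7 in the Mut female group, and all 8 of these cells had 3000 genes or more. Its sums were 0.203 CPM in Mut female, 0.0786 in Mut male, 0 in WT female and 4.75 in WT male expressing cells, against 80.2, 29.4, 3.97 and 2.16 CPM in negative cells, so that the WT male pair ran the other way (log2 fold change -7.55, SE 2.85, unadjusted p = 0.0243, or -4.23 without Mut male cell 3). Pnoc, the gene of the nociceptin precursor, was carried by 14 cells of each class (14 of 29 and 12 of 22 with 3000 genes or more), but its sums were lower in the expressing cells of all 4 groups, as were those of 6.44% of all genes (log2 fold change -1.90, SE 0.77, unadjusted p = 0.0328, or -1.04 without WT female cell 5), with 41.7% of the negative level in 1 cell, Mut male 12.

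Levels of different peptides can be compared in TPM, a transcript abundance that allows for transcript length. The median TPM in Tac1-expressing cells was 818 for Cck, the cholecystokinin gene, 730 for Npy, 577 for Tac1, 132 for Cort, 9.54 for Sst and 3.15 for Pnoc. In Tac1-negative cells the medians were 756 for Cck, 1620 for Npy, 4.95 for Tac1, 2.63 for Cort, 7.27 for Sst and 1.63 for Pnoc. Cck was carried by 23 cells of each class. The Npy levels ran from 6.89 to 27732 TPM in expressing cells and from 8.60 to 17530 TPM in negative cells, so the order of Cck, Npy and Tac1 within the expressing class lies inside the spread of single cells. The tachykinin receptor genes were nearly silent: Tacr1, the substance P receptor, was at 10 CPM in 1 cell of each class, and Tacr2 and Tacr3 in none. Tac2 and Tac4, the other tachykinin genes, were at 10 CPM in 1 Tac1-expressing cell each and in no Tac1-negative cell.

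The somatostatin lineage list as a whole had no one direction. Of its 12 tested members, 5 had a fold change above 0 and 7 below, 1 in each direction had an unadjusted p under 0.05 and none passed, and the median log2 fold change was -0.53. The labelled groups disagreed, with medians of 0.32 in Mut female, -1.20 in Mut male, 0.18 in WT female and -0.15 in WT male cells. The median was 0.64 without the cells of under 3000 genes, 0.39 without the Mut male pair, 0.16 without Mut female cell 5 and 0.044 without Mut male cell 7, so it lay on both sides of 0. Calb1, the gene of the calcium buffer calbindin, was at 10 CPM or more in 8 of 30 Tac1-expressing and 16 of 32 Tac1-negative cells, and Reln, the gene of the secreted protein reelin, in 8 and 14 cells. Only 0.115% and 0.615% of background genes had share differences so far to the negative side. Among cells with 3000 genes or more Calb1 was in 7 of 29 and 13 of 22 cells, a gap no smaller than over all cells. Reln was in 8 of 29 and 7 of 22 of these cells, a smaller gap. Nos1, the neuronal nitric oxide synthase gene of ivy and neurogliaform cells, was in 4 Tac1-expressing and 6 Tac1-negative cells.

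Taken by combinations, 14 of 30 Tac1-expressing cells and 3 of 32 Tac1-negative cells carried Cort, Erbb4 and Ppargc1a together at 10 CPM or more. Conversely, 3 of 30 Tac1-expressing and 13 of 32 Tac1-negative cells carried none of these 3 genes. Erbb4 and Ppargc1a were together in 18 and 5 cells. The combinations were chosen after the single counts were seen and describe these cells only. They were counted over all cells, of which 1 of 30 expressing and 10 of 32 negative cells had under 3000 genes at 10 CPM. The part of detection in these counts was not tested.

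**Figure D4:**
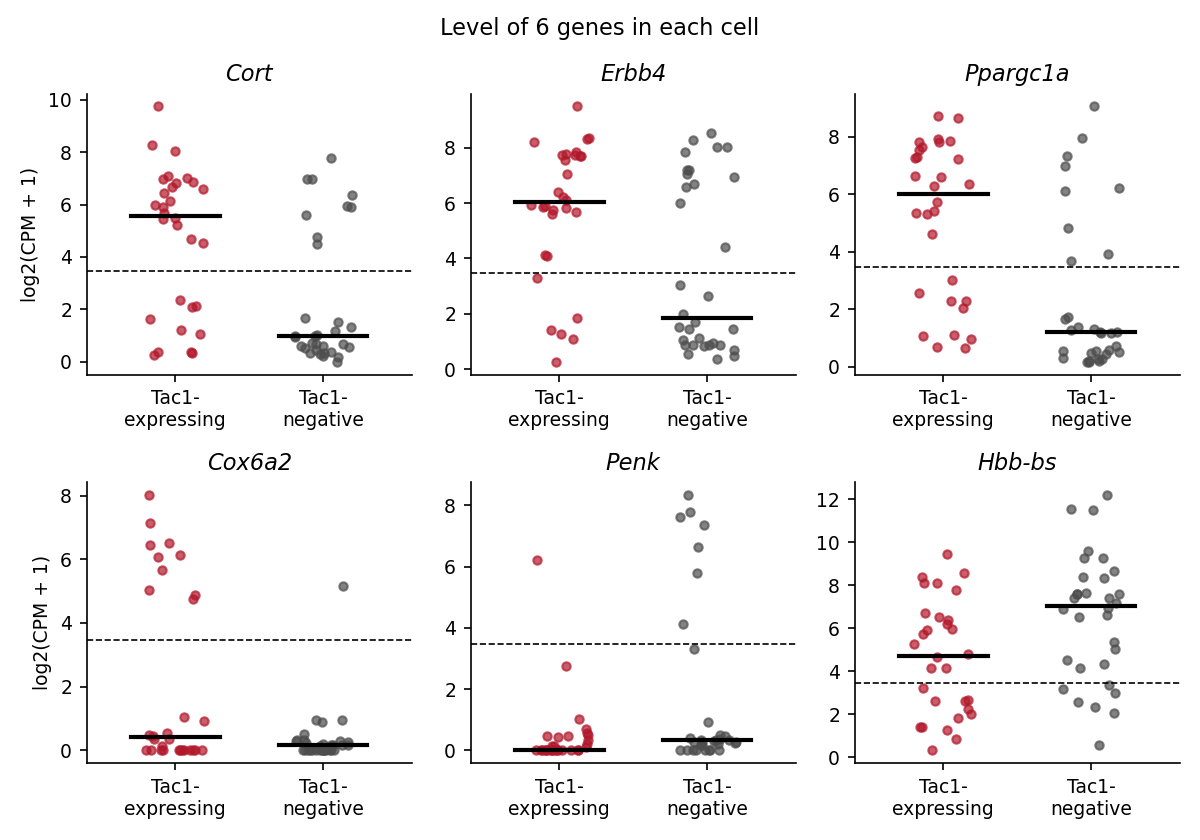
Level of Cort, Erbb4, Ppargc1a, Cox6a2, Penk and Hbb-bs in each cell as log2(CPM + 1), with Tac1-expressing cells on the left, Tac1-negative cells on the right, the median as a line and 10 CPM dashed. Most genes were on or off in single cells: Cort was above the line in 20 of 30 Tac1-expressing and 9 of 32 Tac1-negative cells, and Penk in 1 and 7 cells.

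Markers of other interneuron families lay on both sides, with a smaller part on the Tac1-expressing side than among all genes. Of the 10 genes of the caudal ganglionic eminence list, 4 were in a larger and 5 in a smaller share of Tac1-expressing cells. The 10 genes of the neurogliaform and ivy list gave the same numbers. Of all genes tested, 73.6% were in a larger share. A cell of either class carried a median of 2 genes of the caudal eminence list and 3 of the neurogliaform and ivy list. Single genes differed in both directions. Lamp5, a membrane protein of neurogliaform cells, was in 2 Tac1-expressing and 5 Tac1-negative cells, or 2 of 29 and 4 of 22 with 3000 genes or more (log2 fold change -7.97, SE 3.06), with the WT male pair the other way and 82.0% of the expressing level in WT male cell 10. Adarb2, an RNA-binding protein of interneurons from the caudal ganglionic eminence, was in 1 and 6 cells, or 1 of 29 and 5 of 22 (log2 fold change -3.56, SE 1.74, lower in the expressing sums of all 4 groups, or -2.06 without WT female cell 4), with 79.8% of the negative level in Mut male cell 12. Prox1, a transcription factor of the same origin, was in 2 and 5 cells (log2 fold change -3.44, SE 2.09). Calb2, the gene of calretinin, ran the other way, in 7 Tac1-expressing cells and 1 Tac1-negative cell, all of 3000 genes or more (log2 fold change 2.70, SE 2.51, or 4.28 without Mut male cell 12), with 49.3% of the expressing level in Mut female cell 2. Over the 8 tested members of the caudal eminence list the median log2 fold change was -0.61 (3 above and 5 below 0). Over 8 of the neurogliaform and ivy list it was -0.75 (2 above and 6 below), beside 0.07 for all genes. No member of either list passed.

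The MGE identity genes had a median log2 fold change of 0.27 over 14 tested members, 8 above and 6 below 0, and none passed. Sox6 and Satb1, transcription factors that act after Lhx6 in the maturation of MGE cells, were carried by 18 and 16 of 30 Tac1-expressing cells and by 7 and 7 of 32 Tac1-negative cells. Among cells with 3000 genes or more Sox6 was in 18 of 29 and 5 of 22 cells and Satb1 in 16 of 29 and 3 of 22. Lhx6 itself had a median of 239 CPM in Tac1-expressing and 486 CPM in Tac1-negative cells, and the sums overlapped (log2 fold change -0.68, SE 0.38). Dlx1, a transcription factor of forebrain GABA neurons, had sums lower in expressing cells of all 4 groups (log2 fold change -1.03, SE 0.44, unadjusted p = 0.0405). Nkx2-1, which the lineage label rests on, was at 10 CPM in 5 Tac1-expressing and 6 Tac1-negative cells.

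The genes of excitatory input and membrane excitability named here were in a larger share of Tac1-expressing cells, as 86.2% of the background genes were. Gria3, an AMPA receptor subunit, was at 10 CPM or more in 22 of 30 Tac1-expressing cells, median 120 CPM, and 11 of 32 Tac1-negative cells, median 2.45 CPM. Its sums were 166 CPM in Mut female, 90.9 in Mut male, 169 in WT female and 171 in WT male expressing cells, against 84.98, 32.8, 99.6 and 64.3 CPM in negative cells, each expressing sum above that of its own group (log2 fold change 1.15, SE 0.57, unadjusted p = 0.0698, or 1.97 without WT female cell 9). With 3000 genes or more the counts were 21 of 29 and 8 of 22 cells, and 1.15% of background genes had a share difference as large there. Grik3, a kainate receptor subunit, was carried by 14 and 4 cells, or 14 of 29 and 2 of 22 (log2 fold change 2.86, SE 1.37), a difference that 0.768% of background genes reached. Gria4, the AMPA receptor subunit of fast interneuron synapses, was in 26 and 20 cells (0.72, SE 0.48). The sodium channel gene Scn8a was in 22 and 19 cells (1.65, SE 0.83), the potassium channel gene Kcnq3 in 17 and 9 (1.89, SE 1.18) and the calcium channel subunit gene Cacna2d3 in 18 and 12 (1.93, SE 0.88, or 3.02 without Mut female cell 20). These 4 did not stand out from the background: with 3000 genes or more, 45.7% of background genes had a share difference as large as that of Gria4, 43.4% as large as that of Scn8a and 20.5% as large as those of Kcnq3 and Cacna2d3.

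The channel and receptor lists as wholes gave no calls. The 9 tested sodium channel genes had a median log2 fold change of 0.61, the 19 potassium channel genes 0.04, the 14 calcium channel genes 0.83, the 13 AMPA receptor genes -0.33 and the 12 NMDA and kainate receptor genes 0.07. At the inhibitory synapse, Gphn, the gene of gephyrin that the Mut allele alters, was at 10 CPM in 17 of 30 Tac1-expressing and 18 of 32 Tac1-negative cells, medians 31.9 and 27.7 CPM, with sums lower in expressing cells of all 4 groups (log2 fold change -1.13, SE 0.65, unadjusted p = 0.111). Without WT female cell 8 the log2 fold change was -0.26. Slitrk3, a postsynaptic adhesion protein of inhibitory synapses, was in 14 and 3 cells (log2 fold change 4.06, SE 2.45), and 2.38% of background genes had a share difference as large. Its sums were higher in expressing cells of all 4 groups, by 10.3 against 6.17 CPM in Mut female and 23.4 against 18.3 CPM in WT male cells, where the gap was small. Robo1, an axon guidance receptor, was in 15 and 6 cells (15 of 29 and 5 of 22 with 3000 genes or more) with sums higher in all 4 groups (log2 fold change 2.70, SE 1.39).

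The genes with the smallest p on the higher side were carried by few cells. Of the 12 named by rule, 11 are given here, namely Lysmd4, Etl4, Tom1, Znhit2, Col19a1, Hdac10, Rad18, Cox6a2, Map3k9, Zbtb46 and Mrps2. The 12 had log2 fold changes of 5.09 to 7.28 and unadjusted p from 0.000703 to 0.00405. They were at 10 CPM in 8 to 13 of the 30 Tac1-expressing cells. The rule takes genes carried by the higher class and of smallest p, so low counts among Tac1-negative cells follow from the choice. Lysmd4, which encodes a protein with a LysM domain, was in 11 expressing cells and no negative one, with sums of 13.7 CPM in Mut female, 70.6 in Mut male, 40.8 in WT female and 24.5 in WT male expressing cells, against 0.068, 0.251, 0.323 and 0.281 CPM in negative cells (log2 fold change 7.28, SE 1.51). Col19a1, a collagen of interneurons that acts in synapse formation in mice, was in 10 and 0 cells (6.46, SE 1.56).

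On the lower side the named genes included those of astrocytes and red blood cells. The 12 were Mfge8, Hbb-bs, Prmt3, Hba-a1, Sparcl1, Hba-a2, Kat5, Mex3c, Apoe, Klhl13, Cst3 and Slc1a3, with log2 fold changes of -5.57 to -1.03 and unadjusted p from 0.000206 to 0.00936. Mfge8, a secreted protein of astrocytes that tags debris for engulfment, had sums of 44.4 CPM in Mut female, 5.78 in Mut male, 0.459 in WT female and 1.87 in WT male Tac1-expressing cells, against 275, 286, 34.2 and 306 CPM in Tac1-negative cells (log2 fold change -5.57, SE 0.98). It was at 10 CPM in 5 expressing and 10 negative cells. Slc1a3, an astrocyte glutamate transporter, was in 9 and 10 cells (-3.36, SE 1.05), Apoe, the main lipid carrier of astrocytes, in 25 and 24 (-2.26, SE 0.68), and Aldh1l1, an astrocyte enzyme, in 1 and 6 (-6.34, SE 1.38). Without the cells whose astrocyte and radial glia markers summed to 1000 CPM or more, the log2 fold changes were 0.04 for Aldh1l1, 0.48 for Slc1a3, -0.73 for Apoe and -1.23 for Mfge8, and Aldh1l1 and Slc1a3 are among the markers that chose those cells. Between cells with Tac1 at 50 CPM or more and the few below 1 CPM, the log2 fold changes of Mfge8, Slc1a3 and Apoe were 3.40, 3.86 and 1.44. The median of all genes was 1.55 in that contrast, so Apoe lay below it and Mfge8 and Slc1a3 above it. The few cells below 1 CPM were Mut female cell 17, Mut male cell 4 and WT male cell 9, with none from WT female.

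The whole astrocyte and radial glia list of 12 genes had a median log2 fold change of -1.60, with 11 of 12 below 0, 3 lower at an unadjusted p under 0.05 and none passing. Its summed level per cell ran from 20.6 to 6988 CPM (median 300.4) in Tac1-expressing cells and from 7.22 to 8313 CPM (median 364) in Tac1-negative cells, and 4 of 30 and 11 of 32 cells were at 1000 CPM or more. The part of these transcripts in the other differences was not tested beyond the counts without those cells. Without them the parvalbumin list median was 0.79 and the somatostatin list median 0.75, beside 0.27 for all genes.

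Globin transcripts, which red blood cells carry in great amounts, had lower levels in Tac1-expressing cells. Hbb-bs, a beta globin, was at 10 CPM or more in 18 of 30 Tac1-expressing cells, median 25.5 CPM, and 25 of 32 Tac1-negative cells, median 132 CPM. Its sums were 121 CPM in Mut female, 22.7 in Mut male, 57.4 in WT female and 73.8 in WT male expressing cells, against 405, 59.0, 453 and 799 CPM in negative cells, lower in expressing cells of each group (log2 fold change -2.38, SE 0.51, unadjusted p = 0.000926). Hba-a1, Hba-a2 and Hbb-bt, whose sequences are close to their partners so that reads may be split between copies, had log2 fold changes of -1.73, -1.87 and -2.26. Of the 5 listed red blood cell genes, 4 were lower in expressing cells of all 4 groups, where 6.44% of all genes were, and none passed. Between cells with Tac1 at 50 CPM or more and those below 1 CPM, the log2 fold changes of Hbb-bs and Hba-a1 were 0.13 and 3.13. The median of all genes was 1.55 in that contrast, so Hbb-bs lay below it and Hba-a1 above it. Only Mut female cell 17, Mut male cell 4 and WT male cell 9 were below 1 CPM. The summed level of the 5 genes per cell was 2.75 to 2718 CPM (median 254) in Tac1-expressing cells and 11.8 to 26898 CPM (median 534) in Tac1-negative cells. The part of the number of detected genes in this difference was not tested.

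**Figure D5:**
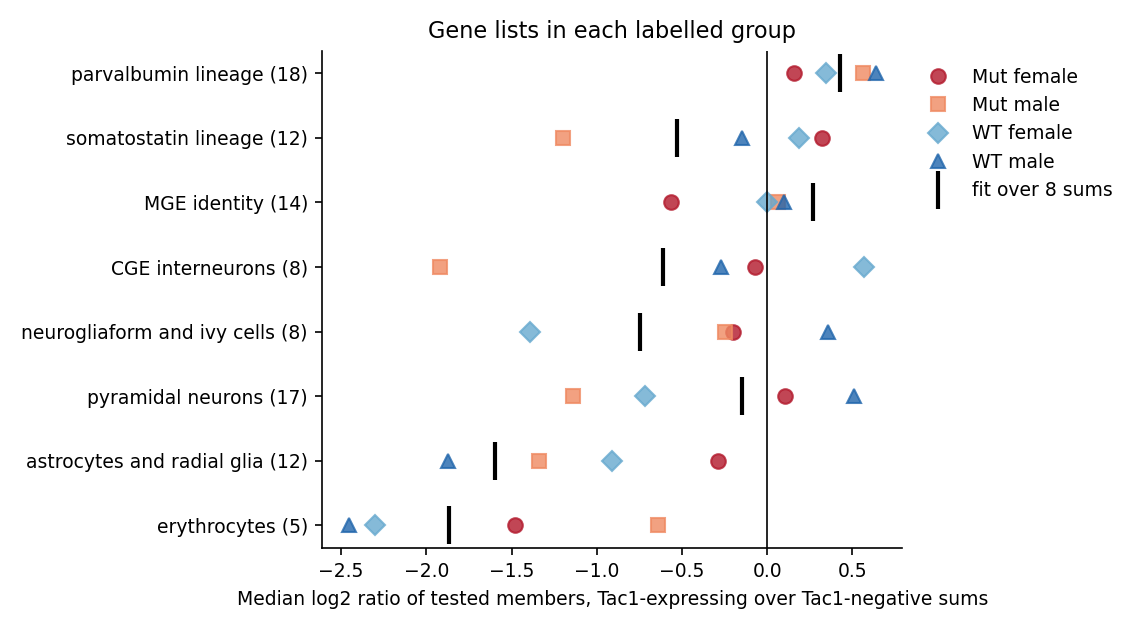
Median log2 ratio of Tac1-expressing over Tac1-negative sums for the tested members of 8 gene lists (number of genes in brackets), in each of the 4 labelled groups, with the median of the fitted fold changes over the 8 sums as a bar. The parvalbumin list lies above 0 in each group, between 0.16 and 0.64, the astrocyte and red blood cell lists lie below 0 in each group, and the somatostatin list lies on both sides.

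Genes of early neuronal growth as a list had no one direction. Stmn1, a microtubule regulator of growing neurons, was in all 62 cells, with a median of 2823 CPM in Tac1-expressing and 3827 CPM in Tac1-negative cells and sums lower in expressing cells of all 4 groups (log2 fold change -0.67, SE 0.23, unadjusted p = 0.0171). Dpysl3, a growth cone protein, had medians of 657 and 733 CPM (-0.98, SE 0.41). Of 19 tested genes of migration and immaturity, 13 were below 0, 2 had an unadjusted p under 0.05 on that side, and the median was -0.22, beside 0.07 for all genes. The group medians were -0.05 in Mut female, -0.08 in Mut male, -1.41 in WT female and -0.08 in WT male cells, so the WT female pair stood apart. Counted by cells, 12 of the 19 genes were in a larger and 2 in a smaller share of Tac1-expressing cells, and the member Robo1 is given above with a fold change above 0. Id2, a transcriptional inhibitor, had a log2 fold change of -1.12 (SE 0.48), Cplx2, the partner of Cplx1, -1.21 (SE 0.70), Crym, a thyroid hormone binding protein, -1.34 (SE 0.47), and Fabp7, a fatty acid binding protein of radial glia, -1.74 (SE 0.60, or -0.98 without Mut male cell 1). The mitochondrially encoded mt-Co1 had sums lower in all 4 groups (-0.54, SE 0.22).

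Whether the difference between the classes depended on genotype or sex was tested by interaction terms in the same model. In edgeR 0 of 13831 genes passed for genotype (0% in each direction, with 273 above and 213 below at an unadjusted p under 0.05, or 1.97% and 1.54%) and 0 for sex (179 and 229, or 1.29% and 1.66%). DESeq2 called 263 (1.9%) above and 339 (2.45%) below for genotype, and 282 (2.04%) and 372 (2.69%) for sex. Tmsb4x, which encodes an actin-sequestering peptide, was the most abundant gene named for genotype. Its sums were 5431 CPM in Mut female and 6982 in Mut male Tac1-expressing cells against 5050 and 4010 CPM in Tac1-negative cells, and 5634 CPM in WT female and 3534 in WT male Tac1-expressing cells against 9192 and 6176 CPM in Tac1-negative cells. The class difference pointed up in both Mut groups and down in both WT groups, with an interaction of 1.21 on the log2 scale (SE 0.28, unadjusted p = 0.00239) that did not pass.

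Within Tac1-expressing cells alone, Mut was set against WT over the 4 sums, with sex as a term and 1 residual degree of freedom. Of 14748 genes tested in edgeR, 0 were higher and 0 lower in Mut (0% each), with 284 above (1.93%) and 223 below (1.51%) at an unadjusted p under 0.05. DESeq2 called 357 (2.42%) above and 260 (1.76%) below. Npy had the smallest p. Among Mut cells 7 of 9 female and 7 of 8 male ones were at 10 CPM or more, with medians of 508 and 305.3 CPM, against 3 of 4 female and 7 of 9 male WT cells, with medians of 52.6 and 126 CPM. That gave a log2 fold change of 2.50 (SE 0.40, unadjusted p = 0.000304, adjusted p = 1). The summed counts without TMM scaling came to 1611 and 804 CPM for female and male Mut cells, against 192 and 253 CPM for those of WT. Without the highest cell of each group they came to 469 and 276 CPM for Mut, against 35.1 and 192 CPM for WT, still higher in Mut for each sex. Golm1, a Golgi membrane protein, and Gpr85, an orphan receptor of neurons, also had higher values in Mut (log2 fold changes 2.73 and 2.65), and Crym and Dusp1, a phosphatase induced by activity, had lower ones (-1.58 and -1.72). None of these passed.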

How the data were processed

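Single mouse neurons were sequenced by Patch-seq, each neuron being 1 sample. Per the submitters' processing notes the reads were quantified with kallisto on GRCm38, and the version is not given in the sources used here. The authors deposited expected counts, fractional values for each gene symbol, in a table before and a table after their quality filter, and the deposited normalized table holds TPM per gene symbol. How the filter worked and how contamination was judged is not given in the sources used here. The unfiltered and filtered tables hold 52 and 44 columns of other cells, which stayed unused. No 2 of the 62 cells had identical values.

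CPM was computed from the filtered expected counts, and cells were classed at Tac1 of 10 CPM. Counts were summed over the cells of each labelled group and class and rounded. The 8 sums were tested with edgeR 4.0.16 (R 4.3.3; quasi-likelihood F-test, TMM scaling, filterByExpr with a minimum count of 10, labelled group as a block, 3 residual degrees of freedom), without Tac1, at a Benjamini-Hochberg adjusted p under 0.05 over all genes. Alternatives used DESeq2 1.42.0, limma 3.58.1, other scalings, filters, Tac1 thresholds and sets of cells; 3 of them, the mean over cells on the log scale and the sets without cells of few genes or with many astrocyte transcripts, were added after the data were seen. A level of 10 CPM was used to count cells carrying a gene. Log2 ratios within a labelled group used a pseudocount of 1 CPM. Figures were drawn with matplotlib 3.10.9.

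Members, the 30 gene lists and tests were chosen with earlier results of these data known. Genes were named by a rule: up to 12 per direction by smallest p among those pointing the same way in all 4 groups, at 10 CPM in 25% or more of the cells of the higher class, besides up to 4 members of each list and all of the parvalbumin and tachykinin lists. A few of these genes are not reported here, though counts and medians of whole lists include them. Genes given with counts of cells only, and combinations, were chosen after their values were seen. Since the reads carry no molecular identifiers and cells may share an animal, the intervals given for shares reflect counting error alone. Positions are from GENCODE M21, which names 35338 of the 35825 gene symbols.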

Additional observations from a re-analysis of the deposited data

Results flagged for a closer look

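Of 124 sets of 4 sums examined (each gene given with a fold change, in each Tac1 class), 11 held 1 sum far from the other 3, where chance flags about 1 in 20. Values are TMM-scaled CPM of the summed cells, and 8 of the 11 lie in the Tac1-negative class.

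In Tac1-expressing cells, Gria3 was lowest in Mut male at 90.9 CPM, against 166 to 171 CPM in the other 3 groups. Grik3 was lowest in WT female at 8.46 CPM, against 49.5 to 53.1 CPM. Penk was highest in WT male at 4.75 CPM, against 0 to 0.203 CPM, and 1 cell carried it.

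In Tac1-negative cells, the WT female sum was the one apart for 3 genes. Id2 was at 1200.1 CPM there against 252 to 257 CPM in the other groups, Klhl13 at 926 CPM against 98.2 to 134 CPM, and Mfge8 at 34.2 CPM against 275 to 306 CPM. The Mut male sum was apart for 3 genes. Adarb2 was at 74.1 CPM against 4.71 to 5.91 CPM, Cox6a2 at 3.64 CPM against 0.051 to 0.251 CPM, and Zbtb46 at 0.503 CPM against 0.266 to 0.277 CPM. Col19a1 was highest in Mut female at 0.544 CPM, against 0.138 to 0.174 CPM, and Hdac10 in WT male at 2.98 CPM, against 0.231 to 0.290 CPM.

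Tac1 was also present in cells outside the comparison. Of the 9 cells removed by the authors' filter 6 were at 10 CPM or more, and of the 5 cells marked with contaminants 1 was.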

How the results depend on the processing

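The count of genes passing in edgeR or limma was 0 in each direction under every other scaling, filter, Tac1 threshold and set of cells tried, and 0 to 0 when 1 cell or 1 labelled group was left out, except that a contrast of cells at Tac1 of 50 CPM or more with cells below 1 CPM, which leaves few negative cells, gave 2 lower genes. DESeq2 gave 592 higher and 246 lower genes for the Tac1 classes, 263 and 339 for the interaction with genotype, 282 and 372 for that with sex, and 357 and 260 for Mut against WT within Tac1-expressing cells; without a filter edgeR gave 1 and 2 for the last. Leaving out single sums of that last fit was not run, since no residual degree of freedom remains. No paired analysis was possible over replicate numbers because the labels give none; the main test pairs the classes within the 4 labelled groups instead.

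The parvalbumin list median of 0.43 was 0.31 without cells under 3000 genes, 0.24 at a threshold of 50 CPM, 0.73 with the stricter filter, 2.68 at 50 against below 1 CPM, 0.65 with cells weighted equally, 1.03 without cells carrying Sst, 0.98 for the mean of log2(CPM + 1) and 0.79 without cells of high astrocyte markers; it ran from 0.26 (without Mut male cell 18) to 0.80 (without WT female cell 4), and from 0.30 (without Mut male) to 0.58 (without WT female) over labelled groups. The somatostatin list median of -0.53 was 0.73 at 50 against below 1 CPM. It was 0.64 without cells under 3000 genes and 0.75 without cells of high astrocyte markers. It was also above 0 at a threshold of 5 CPM (0.054), without cells carrying Sst (0.068) and for the mean of log2(CPM + 1) (0.084). Without the block it was -0.088. It ran from -0.99 (without Mut female cell 22) to 0.16 (without Mut female cell 5), and from -0.83 (without Mut female) to 0.39 (without Mut male). The median of all genes shifted from 0.07 to 0.31 with library totals, 0.35 with the mean of logs and -0.14 without the block. It was 0.27 without cells of high astrocyte markers and 1.55 at 50 against below 1 CPM.

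Single genes changed sign as follows; the cause was not tested. At 50 against below 1 CPM the log2 fold changes were 1.46 for Aldh1l1, 1.44 for Apoe, -0.066 for Btbd11, 0.57 for Dlx1, 4.46 for Fabp7, 3.13 for Hba-a1, 2.31 for Hba-a2, 0.13 for Hbb-bs, 3.72 for Hbb-bt, 1.08 for Id2, 0.60 for Kat5, -0.93 for Kcnc1, 0.27 for Lhx6, 3.40 for Mfge8, 0.73 for Npy and 3.86 for Slc1a3. Kcnc1 was -0.0557 in DESeq2 and -0.0559 with its scaling in edgeR, -0.0667 at a threshold of 50 CPM, -0.15 without the block, -0.10 without cells lacking Lhx6, -0.30 without cells under 3000 genes, -0.20 without cells carrying Sst and -0.69 without cells of high astrocyte markers. Mef2c was -0.0193 in DESeq2 and -0.0192 with its scaling, -0.11 at a threshold of 5 CPM, -0.0612 without cells lacking Lhx6, -0.35 without cells under 3000 genes and -0.0455 without cells carrying Sst. Kcnc2 was -0.13 without the block, Hapln1 1.24 without cells carrying Sst, Id2 0.38 and Lhx6 0.34 for the mean of logs, and Kat5 0.73 and Npy 0.0047 without cells under 3000 genes. Without cells of high astrocyte markers Aldh1l1 was 0.0368, Fabp7 1.05 and Slc1a3 0.48. Leaving out 1 cell moved the value by over 1.5 times or past 0 for 20 of 62 genes; besides those given so far, Nefm was 0.12 without Mut female cell 16, Apoe -1.49 without Mut male cell 1, Cplx1 0.84 without WT female cell 7, Hapln1 -4.55 without WT female cell 6, Hbb-bt -1.32 without WT female cell 5 and Kcnc2 0.27 without WT female cell 3. Etv1 ran from -0.77 (without WT female cell 1) to 3.36, Kcnc1 from -0.32 (without Mut male cell 8) to 0.58, Mef2c from -0.12 (without WT female cell 1) to 0.16 and Rpp25 from -0.05 (without WT male cell 11) to 1.99; leaving out 1 group, Etv1 reached 3.50, Kcnc1 ran from -0.14 (without WT male) to 0.17, Kcnc2 from -0.48 (without WT female) to 1.53, Mef2c from -0.21 (without WT female) to 0.47 and Rpp25 from -0.55 (without Mut female) to 0.93.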
